A study of Mus musculus with 9 samples.

Results

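The genes described here are 7 members of the mouse Zcchc group, *Zcchc24*, *Zcchc12*, *Zcchc14*, *Zcchc17*, *Zcchc18*, *Zcchc3* and *Zcchc8*, taken by symbol from the 55401 genes of a forebrain RNA-seq count table. All 7 passed the filter on low counts that left 17818 genes for testing. The group was assembled around *Zcchc24* because its count was already known to differ between the genotypes in these embryos. The difference between genotypes is therefore given for the 7 genes as a description. No conclusion is drawn from whether they passed the test run on all genes.

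Forebrain was collected at E16 to E17 from 5 wild-type (WT) and 4 *Npas3*+/- (HET) female embryos, the WT being littermates. HET embryos were constitutive heterozygous knockouts of *Npas3*, and both genotypes were on a C57BL/6J background. *Npas3* encodes a bHLH-PAS transcription factor, which the paper describes as highly expressed in astrocytes although it is named for neurons. The libraries came from whole forebrain tissue, although the sample labels also name astrocytes, so a fall in RNA per cell and a fall in the number of cells of a type cannot be told apart.

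A CCHC zinc knuckle is a short loop in which 3 cysteines and 1 histidine hold a zinc ion. The fold is best known from retroviral nucleocapsid proteins, and most proteins that carry it bind single-stranded RNA or DNA. In the genes named Zcchc the knuckle is often the feature in common, while the rest of the protein serves tasks as different as nuclear RNA decay, transcription and the sensing of viral nucleic acid.

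The knuckle of each gene is shown first because it is the shared feature by which these genes are named, and because it lets the reader see how far the likeness goes. In the coding sequences of GENCODE release M21 (GRCm38), the spacing Cys, 2 residues, Cys, 4 residues, His, 4 residues, Cys was found once in 6 of the genes and 3 times in *Zcchc3*. Each stretch is 42 bases long and is read 5′ to 3′ on the coding strand, with the codons of the cysteines and the histidine in capitals.
Zcchc24, chr14:25757017-25757058, minus strand, exon 2 of 4: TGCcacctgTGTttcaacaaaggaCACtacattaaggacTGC
Zcchc12, chrX:36198473-36198514, plus strand, exon 4 of 4: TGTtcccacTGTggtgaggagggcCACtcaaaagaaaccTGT
Zcchc18, chrX:136995679-136995720, plus strand, exon 2 of 2: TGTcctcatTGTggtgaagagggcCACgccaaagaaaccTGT
Zcchc8, chr5:123708578-123708619, minus strand, exon 8 of 14: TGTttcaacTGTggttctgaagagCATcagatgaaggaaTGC
Zcchc17, chr4:130327319-130329595, minus strand, exons 6 and 7 of 8, joined across an intron: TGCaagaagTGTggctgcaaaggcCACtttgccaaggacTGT
Zcchc14, chr8:121603839-121603880, minus strand, exon 12 of 13: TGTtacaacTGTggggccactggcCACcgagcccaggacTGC
Zcchc3, first knuckle, chr2:152413743-152413784, minus strand, exon 1 of 1: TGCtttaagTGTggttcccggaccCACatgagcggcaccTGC
Zcchc3, second knuckle, chr2:152413689-152413730, minus strand: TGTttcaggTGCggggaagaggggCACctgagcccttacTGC
Zcchc3, last knuckle, chr2:152413632-152413673, minus strand: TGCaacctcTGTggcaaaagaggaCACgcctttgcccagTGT

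The closest pair was *Zcchc12* and *Zcchc18*, which shared 36 of 42 bases and 12 of 14 encoded residues. No other pair came as close. The knuckle of *Zcchc24* shared 27 of 42 bases and 8 of 14 residues with that of *Zcchc17*, and between 16 and 27 bases with the rest. *Zcchc14* and *Zcchc17* shared 28 bases and 8 residues. The cysteines and the histidine are fixed by the search. Outside them *Zcchc12* and *Zcchc18* shared 8 of 10 residues, and *Zcchc24* and *Zcchc17* shared 4 of 10. The place of the knuckle in the protein differed too, at residues 134 to 147 of 241 in *Zcchc24* and at residues 915 to 928 of 956 in *Zcchc14*. In *Zcchc12* and *Zcchc18* it lay at the same residues, 348 to 361.

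The total count per library was between 42640218 and 62830060 in WT and between 43011519 and 51588211 in HET. *Npas3* (ENSMUSG00000021010) was measured at 36.2 ± 4.18 CPM (the count relative to the TMM-scaled library size; SD, n = 5) in WT and 29.5 ± 3.09 CPM (n = 4) in HET, so that HET held 81.4% of the WT mean. Its groups overlapped, the highest HET embryo (HET 7) at 34.1 CPM standing above the lowest WT embryo (WT 16) at 29.7 CPM (log2 fold change −0.30, SE 0.10, edgeR adjusted p = 0.877). The counts cover the whole gene, so they do not isolate the deleted exons. Libraries also differed in RNA of the choroid plexus, the secretory epithelium of the ventricles. *Ttr*, its main transcript, lay under 12 CPM in 2 WT (WT 5 and WT 43) and 3 HET embryos (HET 5, HET 6 and HET 7), at 466.6 CPM in HET 24 and at 2127 CPM or more in the other 3 WT embryos. Among the 5 embryos with low *Ttr* alone, the log2 fold changes of the 6 genes other than *Zcchc24* were 0.41 (*Zcchc12*), 0.02 (*Zcchc14*), 0.13 (*Zcchc17*), 0.08 (*Zcchc18*), −0.13 (*Zcchc3*) and −0.07 (*Zcchc8*). The value of *Zcchc24* in these embryos is given with its levels.

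*Zcchc24* (ENSMUSG00000055538, chr14:25711642-25769039, minus strand) encodes a small protein that has been little studied. Its RNA was far lower in HET than in WT forebrain, the widest gap among the 7 genes. In the WT embryos numbered 5, 15, 16, 41 and 43 it was measured at 33.2, 53.7, 47.8, 52.9 and 48.4 CPM. In the HET embryos numbered 5, 6, 7 and 24 it was measured at 11.8, 10.3, 12.2 and 10.3 CPM. Every HET embryo lay below every WT embryo, and the lowest WT value was 2.72 times the highest HET value. These levels rest on 1380 to 3356 reads per WT library and 441 to 591 reads per HET library. The means were 47.2 ± 8.25 CPM (SD, n = 5) in WT and 11.1 ± 1.02 CPM (n = 4) in HET, which is 23.6% of WT and a log2 fold change of −2.08 (SE 0.14).

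*Zcchc24* was the only 1 of the 7 genes past an edgeR adjusted p of 0.05 in the fit over all genes, against 0.14% of all genes tested in either direction, 0.112% lower and 0.0281% higher in HET. It was also the only member whose groups did not overlap, where 1.85% of all tested genes had no overlap and 1.07% were lower without overlap. As the gene was chosen on this contrast, nothing is read from either count. A wide difference was also present among the embryos with low *Ttr*, where the mean was 40.8 CPM in 2 WT and 11.4 CPM in 3 HET embryos, or 28.0% of WT (log2 fold change −1.83). HET 24, the HET embryo with the most *Ttr*, and HET 6, the one with the least, were both at 10.3 CPM. WT 5 was the lowest WT embryo for *Zcchc24*, at 33.2 CPM, and the lowest of all embryos for *Ttr*, at 0.77 CPM. WT 43, the other WT embryo with low *Ttr*, was at 48.4 CPM. Without WT 5 the WT mean of *Zcchc24* was 50.7 CPM. The part of choroid plexus RNA in the level of WT 5 was not tested.

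**Figure D1:**
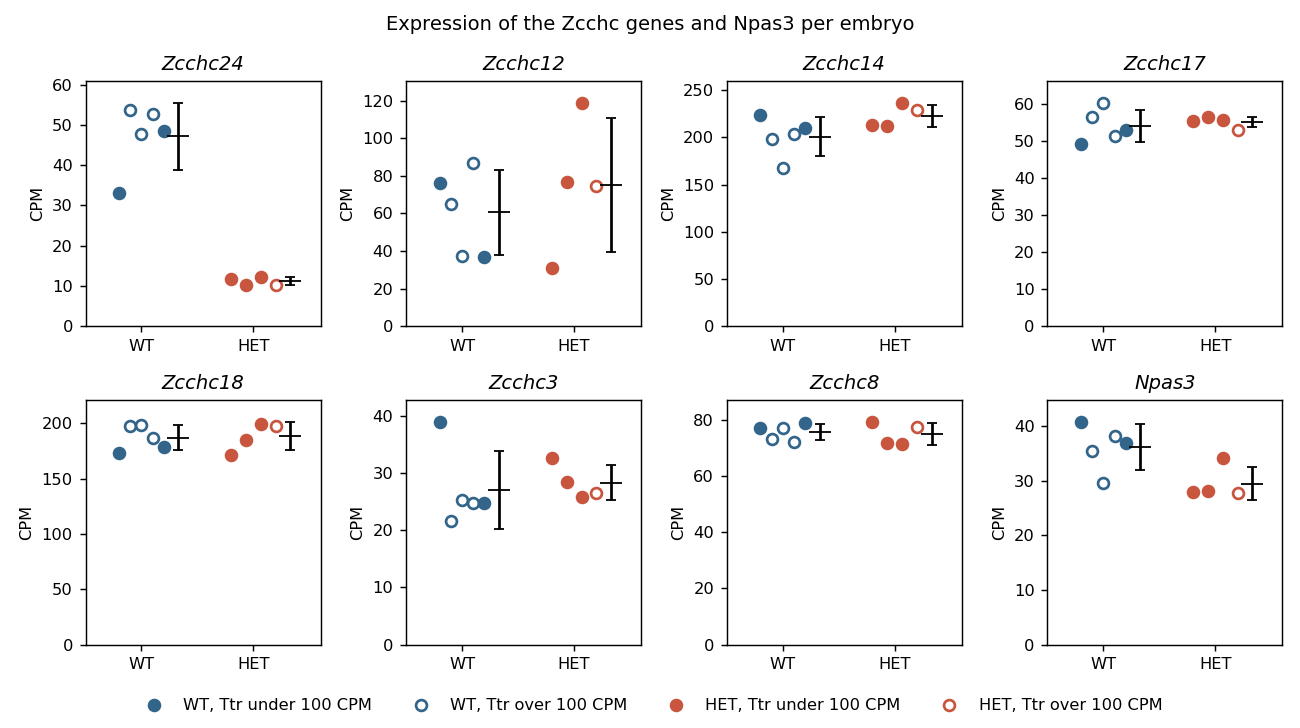
CPM (TMM-scaled, linear axis from 0) of the 7 Zcchc genes and of *Npas3*, with 1 point per embryo, WT in blue and HET in red. Filled points are embryos with *Ttr* under 100 CPM and open points those above it, and bars show the mean ± SD beside each group. The 4 HET embryos lie between 10.3 and 12.2 CPM for *Zcchc24*, below all 5 WT embryos, whereas the HET and WT points share a range in the other 7 panels.

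The genes beside *Zcchc24* on chromosome 14 did not share its difference. *Ppif*, which encodes cyclophilin D of the mitochondrial matrix, lies 11174 bases away and was measured at 16.8 ± 1.32 CPM in WT and 17.8 ± 1.12 CPM in HET (log2 fold change 0.08, SE 0.08, edgeR adjusted p = 0.915). *Anxa11*, an annexin gene 73117 bases away on the other side, was measured at 0.983 ± 0.451 CPM in WT and 0.951 ± 0.148 CPM in HET (log2 fold change −0.06, SE 0.33, edgeR adjusted p = 0.983). In both genes the groups overlapped, as they did in *Ppifos*, 10360 bases away (log2 fold change 0.13, SE 0.15), and in *4933413J09Rik*, 587535 bases away (0.48, SE 0.29). Within 5 Mb of *Zcchc24*, 0 of 55 other tested genes passed the threshold. Around the other 6 genes the only call within that distance was *P2rx7*, an ATP-gated ion channel gene 1006862 bases from *Zcchc8* (log2 fold change −1.71).

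*Zcchc12* (ENSMUSG00000036699, chrX:36195904-36199158, plus strand), also called Sizn1, encodes a SMAD-interacting coactivator of BMP signalling known from the ventral forebrain. Within genotype it varied more between embryos than any other of the 7 genes. It stood at 76.5, 65.1, 37.5, 86.7 and 36.9 CPM in WT 5, 15, 16, 41 and 43, and at 31.0, 76.7, 118.8 and 74.6 CPM in HET 5, 6, 7 and 24. The lowest and the highest embryo were both HET, 3.84-fold apart, and the WT range lay inside the HET range. Means were 60.5 ± 22.7 CPM in WT and 75.2 ± 35.9 CPM in HET (log2 fold change 0.31, SE 0.35), so that the difference of the means was smaller than the SD of either group. Without HET 7 the log2 fold change was 0.01, and without HET 5 it was 0.57. The SD within genotype, 0.69 on the log2 scale, lay at percentile 99.3 of the 10281 genes at 10 CPM or more, whose median was 0.13.

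*Zcchc18* (ENSMUSG00000031428, chrX:136993155-136998472, plus strand), or Sizn2, is the paralog of *Zcchc12* on the same chromosome and has the most similar knuckle of the group. Its level was far steadier, at 173, 197, 199, 186 and 179 CPM in WT 5, 15, 16, 41 and 43 and at 172, 185, 199 and 198 CPM in HET 5, 6, 7 and 24. Both genotypes covered nearly the same range. The means were 186.8 ± 11.3 CPM in WT and 188.4 ± 12.9 CPM in HET (log2 fold change 0.01, SE 0.07), and the SD within genotype lay at percentile 22.9. Of its exonic bases, 6.1% overlap *Gm15038* on the same strand, whose reads cannot be told apart from its own there.

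Of 23 genes of BMP and SMAD signalling, the pathway that *Zcchc12* acts on, 0 passed the edgeR threshold and 4 had an unadjusted p under 0.05, where 5.42% of all tested genes did. The median log2 fold change of the list was 0.01, against −0.0046 for all tested genes. DESeq2 called 1 of them, *Bmpr1b*, a type I BMP receptor, lower in HET. It was measured at 7.54 ± 2.85 CPM in WT and 4.08 ± 0.306 CPM in HET (log2 fold change −0.89, SE 0.23, edgeR adjusted p = 0.489, DESeq2 adjusted p = 0.0221). *Id1*, a transcriptional target of BMP signalling, was measured at 15.2 ± 3.78 CPM in WT and 9.75 ± 1.09 CPM in HET (log2 fold change −0.64, SE 0.17, edgeR adjusted p = 0.555). These were the 2 genes of the list whose groups did not overlap, where 1.07% of all tested genes were lower without overlap. In the embryos with low *Ttr* their log2 fold changes were −1.23 (*Bmpr1b*) and −0.74 (*Id1*), and 0 genes of the list were called there. The lowest fold change of the list, −1.08 (SE 0.38) for the ligand gene *Bmp4*, was −0.33 in the embryos with low *Ttr*. The highest was 0.33, for the BMP antagonist gene *Grem1*, which stood at 0.78 in those embryos.

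*Zcchc8* (ENSMUSG00000029427, chr5:123698294-123721100, minus strand) encodes the scaffold of the nuclear exosome targeting (NEXT) complex, in which it holds the RNA helicase MTR4 and the RNA-binding protein RBM7. It was the steadiest of the group, at 77.1, 73.2, 77.0, 72.2 and 79.0 CPM in WT 5, 15, 16, 41 and 43 and at 79.4, 71.7, 71.5 and 77.4 CPM in HET 5, 6, 7 and 24. The 2 sets of values interleaved, and the highest embryo was 1.11 times the lowest. The means were 75.7 ± 2.88 CPM in WT and 75.0 ± 4.03 CPM in HET (log2 fold change −0.01, SE 0.06). Only 6.8% of the 10281 genes at 10 CPM or more had a lower SD within genotype.

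*Zcchc17* (ENSMUSG00000028772, chr4:130315383-130359943, minus strand) encodes a nucleolar protein with an S1 RNA-binding domain. Its levels were 49.2, 56.5, 60.1, 51.2 and 53.0 CPM in WT 5, 15, 16, 41 and 43 and 55.4, 56.4, 55.6 and 53.0 CPM in HET 5, 6, 7 and 24. All HET values fell inside the WT range. The means were 54.0 ± 4.33 CPM in WT and 55.1 ± 1.47 CPM in HET (log2 fold change 0.03, SE 0.07).

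*Zcchc14* (ENSMUSG00000061410, chr8:121598703-121652901, minus strand) encodes a protein with a SAM domain that recruits the poly(A) polymerases TENT4A and TENT4B to RNA hairpins. It was measured at 224, 198, 168, 203 and 210.4 CPM in WT 5, 15, 16, 41 and 43 and at 213, 213, 236 and 229 CPM in HET 5, 6, 7 and 24. The HET embryos stood in the upper part of the WT range or just over it, but the groups overlapped. Means were 200.7 ± 20.9 CPM in WT and 222.7 ± 11.8 CPM in HET (log2 fold change 0.15, SE 0.08).

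The partners of these RNA-processing proteins were likewise close to WT. Among 12 genes of the NEXT, PAXT and TRAMP assemblies, which feed nuclear RNA to the exosome, 0 passed the threshold in edgeR or DESeq2 and 0 had an unadjusted p under 0.05 in edgeR. Their median log2 fold change was −0.02, and the range ran from −0.12 for *Pabpn1*, the nuclear poly(A)-binding protein gene, to 0.10 for *Tent4a*. Of 13 genes of the RNA exosome itself, 12 were tested and *Exosc6* was listed at 0 in every library. None of the 12 passed in edgeR or DESeq2, 1 had an unadjusted p under 0.05, and the median was −0.05, from −0.12 for the nuclease gene *Exosc10* to 0.08 for *Exosc5*.

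*Zcchc3* (ENSMUSG00000074682, chr2:152411955-152415027, minus strand), the gene with 3 knuckles in a single coding exon, encodes a co-sensor for cGAS and for RIG-I-like receptors. It was measured at 39.0, 21.6, 25.3, 24.8 and 24.7 CPM in WT 5, 15, 16, 41 and 43 and at 32.7, 28.5, 25.8 and 26.4 CPM in HET 5, 6, 7 and 24. WT 5 stood above all other embryos. The remaining 4 WT embryos, at 21.6 to 25.3 CPM, lay just below the 4 HET embryos. The means were 27.1 ± 6.81 CPM in WT and 28.4 ± 3.11 CPM in HET (log2 fold change 0.07, SE 0.16), and without WT 5 the WT mean was 24.1 CPM and the log2 fold change 0.23. Of 12 genes of cGAS and RIG-I sensing, 10 were tested. In edgeR and in DESeq2 0 of them passed, and 0 had an unadjusted p under 0.05 in edgeR. Their median log2 fold change was −0.09, from −0.45 for *Ifih1*, the gene of the RNA sensor MDA5, to 0.21 for *Sting1*, the gene of the adaptor below cGAS.

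The 6 genes other than *Zcchc24* had log2 fold changes between −0.01 and 0.31, with a median of 0.05, 5 of them higher and 1 lower in HET. A list of 22 further genes, chosen by name, also encodes the knuckle, and 19 of these were tested. The rest of the table was not searched for it. In this wider set 0 genes passed the threshold in edgeR or DESeq2, and 1 had an unadjusted p under 0.05. That gene was *Zcchc2* (log2 fold change 0.27, SE 0.10, edgeR adjusted p = 0.908). Their median was 0.02, and their range ran from −0.12 for *Rbm4*, a splicing regulator gene, to 0.30 (SE 0.47) for *Lin28b*, a gene that blocks let-7 processing. The groups did not overlap for 1 of the 19, *Rbbp6*, at 178.7 ± 6.14 CPM in WT and 190.6 ± 4.09 CPM in HET, where 0.786% of all tested genes were higher without overlap.

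**Figure D2:**
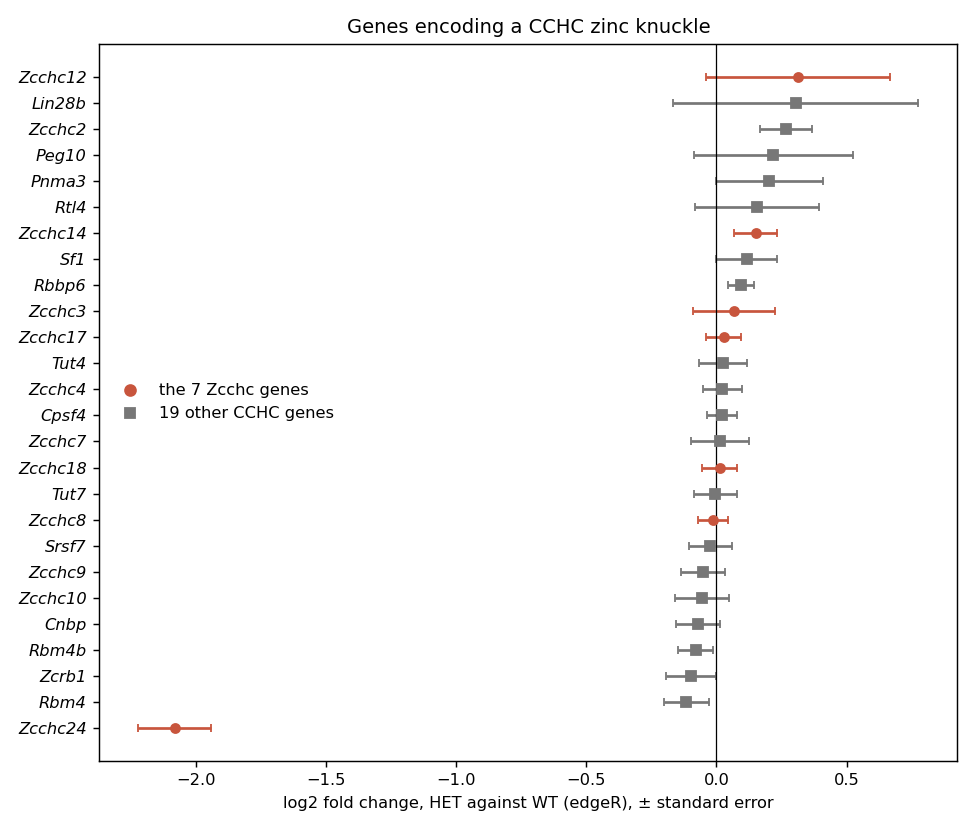
Log2 fold change of HET against WT from edgeR (horizontal axis, ± SE) for the 7 Zcchc genes (red circles) and 19 other tested genes (grey squares), in order of the fold change. The 19 come from a chosen list of genes that encode a CCHC zinc knuckle. *Zcchc24* lies at −2.08 and the other 25 genes between −0.12 and 0.31.

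Levels can be set beside each other between genes only per length, here as CPM per kilobase of exon. In WT the order of the means was *Zcchc18* at 38.3 ± 2.32, *Zcchc12* at 26.5 ± 9.94, *Zcchc14* at 25.8 ± 2.68, *Zcchc8* at 14.4 ± 0.549, *Zcchc17* at 11.8 ± 0.951, *Zcchc24* at 10.4 ± 1.81 and *Zcchc3* at 8.81 ± 2.22 (SD, n = 5). Only *Zcchc14* over *Zcchc8* and *Zcchc8* over *Zcchc17* were neighbours whose WT ranges did not overlap. *Zcchc12* exceeded *Zcchc14* in 3 of 5 WT embryos, and *Zcchc24* exceeded *Zcchc3* in 4 of 5. All 7 genes were thus among the better expressed ones, from percentile 67.5 (*Zcchc3*) to 93.4 (*Zcchc18*) of the 17804 tested genes with a length. In HET the order of the other 6 was the same, while *Zcchc24*, at 2.45 ± 0.224 CPM per kilobase (n = 4), had passed below *Zcchc3*, at 9.23.

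**Figure D3:**
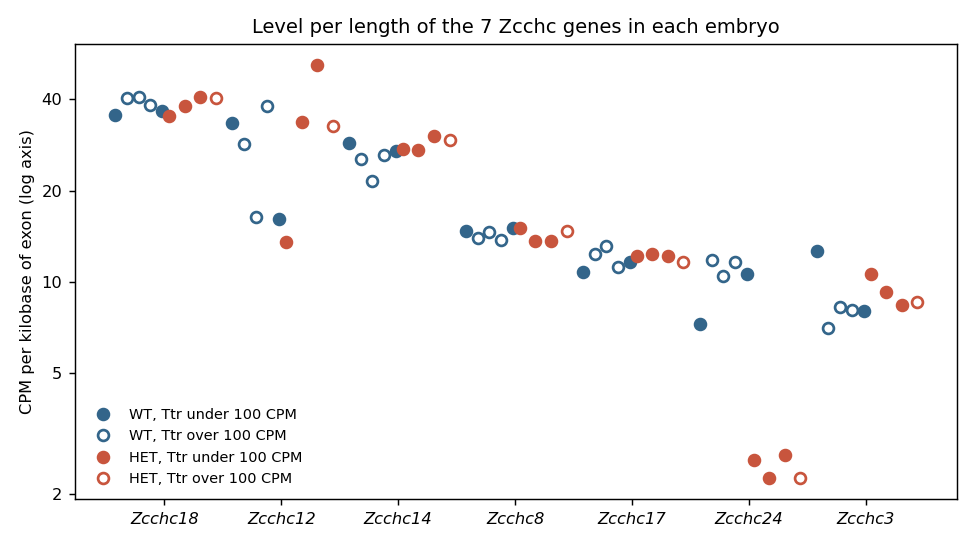
CPM per kilobase of exon (log axis) of the 7 Zcchc genes in each of 5 WT (blue) and 4 HET (red) embryos, ordered by the WT mean, with filled points for *Ttr* under 100 CPM. *Zcchc24* moves from 10.4 on average in WT to 2.45 in HET, below every other value plotted.

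Over the 9 embryos, the genes whose log2 CPM followed *Zcchc24* most closely were *Gm6145* (Pearson's r = 0.984), *Amz1* (0.977), *Mt2* (0.973), *Mt1* (0.972) and *Vit* (0.971), among 17817 genes compared. *Mt1* and *Mt2* encode metallothioneins, small proteins that bind zinc and copper, *Amz1* a metallopeptidase and *Vit* the matrix protein vitrin. All 5 were called lower in HET, with log2 fold changes from −1.77 (*Amz1*) to −3.30 (*Gm6145*), and the points of these correlations share the 9 libraries and the split by genotype. *Gm6145* rested on few reads, at 2.69 ± 0.67 CPM in WT and 0.27 ± 0.09 CPM in HET, with a lowest count of 7. *Mt2* is uncertain, since 73.5% of its exonic bases overlap *Gm45774* on the opposite strand. With the genotype means removed, none of the 5 remained among the 5 closest genes. These were then *Emp2* (0.978), *Rab3gap1* (0.976), *Xlr3b* (0.976), *Fbln2* (0.975) and *Lpcat3* (0.969). *Xlr3b* was a gene of low level, from 0 to 3.87 CPM. WT 5 deviated most in *Zcchc24*, at −0.49 from the WT mean, with WT 15 next among WT at 0.21. These correlations therefore rest largely on WT 5. *Emp2*, a membrane protein gene, had the same mean in both genotypes, at 18.8 CPM.

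**Figure D4:**
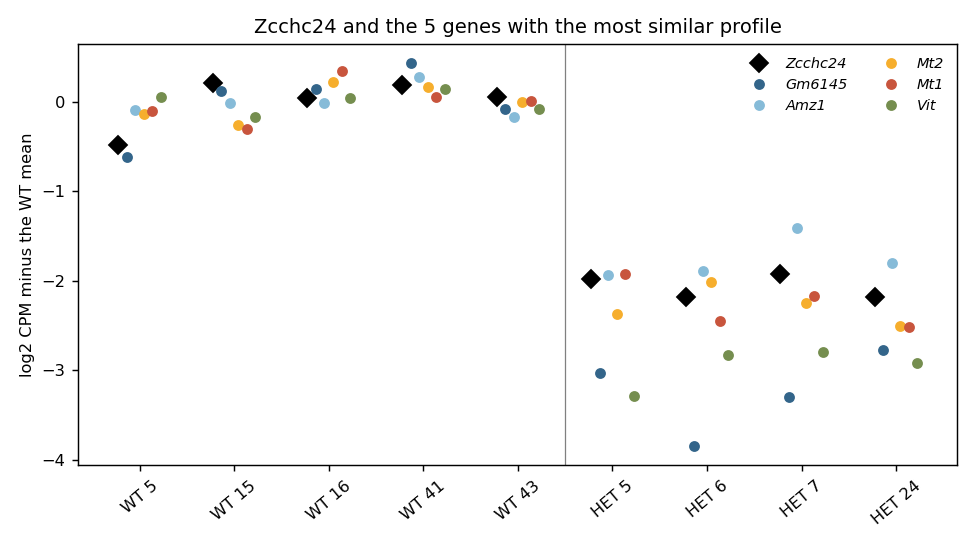
Log2 CPM minus the WT mean (vertical axis) of *Zcchc24* (black diamonds) and of the 5 genes with the most similar profile, in each of the 9 embryos. The vertical line parts WT from HET, and within each genotype the genes do not keep a common order of embryos.

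The variation of *Zcchc12* between embryos was closely matched by several genes, the GABA synthesis genes *Gad1* and *Gad2* among them, a comparison added after its values were seen. Of 17817 genes compared over the 9 embryos, *Syt13* came closest to *Zcchc12* in the deviations from the genotype means (r = 0.998). Next were *Gad1* (0.993), *Rftn1* (0.992), *Gm41361* (0.991) and *Gad2* (0.990). *Gad1* and *Gad2* encode the glutamate decarboxylases that mark GABAergic neurons. *Gad1* was lowest in HET 5, at 33.4 CPM, and highest in HET 7, at 121.0 CPM, the same embryos that were lowest and highest in *Zcchc12*. In WT 16 and WT 43, the low WT embryos for *Zcchc12*, *Gad1* stood at 46.7 CPM or less and *Gad2* at 29.6 and 32.5 CPM. *Gad2* reached 64.9 CPM in WT 5 and in WT 41. The part of dissection or of cell makeup in this shared variation was not tested.

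**Figure D5:**
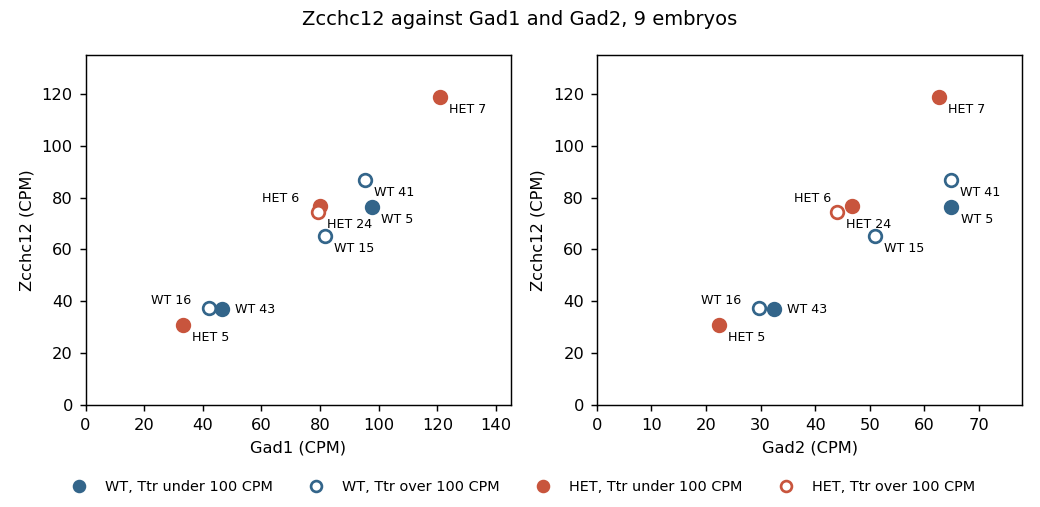
CPM of *Zcchc12* (vertical axis) against CPM of *Gad1* (left) and *Gad2* (right), with 1 labelled point per embryo, WT in blue and HET in red. The embryos run from HET 5 at the lower left to HET 7 at the top, and WT and HET embryos are mixed along the way.

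Among markers of the cell types of the forebrain, the summed level of 12 markers of astroglia and radial glia was between 2287 and 2593 CPM in WT and between 1877 and 2222 CPM in HET, without overlap. Of the 11 tested markers 1 was called lower, where 0.112% of all tested genes were. It was *Fabp7*, a fatty acid binding protein gene of radial glia, at 618.5 CPM in WT and 341.5 CPM in HET (log2 fold change −0.86, edgeR adjusted p = 0.0223). In the 5 embryos with low *Ttr* its log2 fold change was −0.79 and it was not called. DESeq2 called 2 of these markers lower, *Fabp7* and the water channel gene *Aqp4*. Without *Fabp7* the sums ran from 1694 to 2021 CPM in WT and from 1517 to 1954 CPM in HET and overlapped. Over the 11 tested markers the median log2 fold change was −0.12, from −1.63 for *Aqp4* to 0.15 for the aldolase gene *Aldoc*, and 3 had an unadjusted p under 0.05 in edgeR, *Fabp7*, *Aqp4* and *Aldh1l1* (log2 fold change −1.16, SE 0.42), the last named after its value was seen. Of 59 tested markers, 0 were called by edgeR or DESeq2 in the lists of neurons, oligodendrocyte lineage, endothelium, mural cells, meninges, microglia, choroid plexus, ependyma and blood. An unadjusted p under 0.05 in edgeR was found for 11 of them, 6 of these in choroid plexus, and no marker was at 0 in all libraries. Of all tested genes 5.42% had such a p. *Cspg4* was counted both in the oligodendrocyte lineage and in mural cells. The part of astroglial cells in the level of *Zcchc24* was not tested.

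The E-box CANNTG, a hexamer that reads the same on both strands and that bHLH proteins are known to bind, was counted in the RefSeq promoter windows (GRCm38.p6), from 250 bases before to 50 bases after each start. *Zcchc24* held it once, as CATGTG. At least 1 E-box stood in 5 of the 7 genes and none in *Zcchc8* and *Zcchc14*, where 72.3% of all 32851 windows held at least 1. The RefSeq window of *Zcchc14*, chr8:121651884-121652183, lies inside the gene as GENCODE places it. The bases before the outermost GENCODE start of *Zcchc14* were therefore not searched. The narrower motifs CACGTG, and ACGTG on either strand, which overlaps CACGTG, were in 0 of the 7 genes, where 7.2% and 19.6% of all windows held them.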

How the data were processed

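The deposited unit was the count of reads per gene, left without normalization by the authors, for 55401 genes with 1 column per embryo. Per the submitters' processing notes, reads were aligned to GRCm38.p6 with STAR 2.7.9a and counted with featureCounts. How strand and reads with several alignments were handled is not given in the sources used here. Genotype labels gave the groups. In R 4.3.3 with edgeR 4.0.16, genes were filtered with filterByExpr (minimum count 10), scaled by TMM and compared between HET and WT over all 9 embryos with the quasi-likelihood test and no covariate. Benjamini-Hochberg adjustment ran over 17818 genes, and genes under 0.05 were called. CPM use the TMM-scaled library sizes, and without molecular identifiers reads may include PCR copies. DESeq2 1.42.0 and the other alternatives are given with the closing limits, and the edgeR steps were tested on simulated data. There 69% of the 2-fold and 96% of the 4-fold changes were recovered, and 7.8% of the calls were false. Coordinates, exon lengths and coding sequences came from GENCODE release M21 (GRCm38). The 7 genes and all gene lists were chosen with earlier results of these data known. Named genes were the members, and of the family, pathway and astroglial lists the lowest and highest fold change and the genes called or without overlap. The nearest tested neighbours of *Zcchc24* and the 5 genes most like it by Pearson's r were also named. *Zcchc2* and *Aldh1l1* were named for their unadjusted p. The other 9 marker lists were not treated so. In these the endothelial marker *Tie1* was lower in HET without overlap, as were 1.07% of all tested genes.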

Additional observations from a re-analysis of the deposited data

Results flagged for a closer look

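*Zcchc24* in WT 5, at 33.2 CPM, lay far from the other 4 WT embryos, at 47.8 to 53.7 CPM (Dixon ratio 0.713, against a critical value of 0.71). *Zcchc3* in the same embryo, at 39.0 CPM, lay far above the other 4, at 21.6 to 25.3 CPM (Dixon ratio 0.786). Chance gives such a gap in about 1 in 20 groups, or 0.7 of the 14 groups examined here, and both cases were in 1 library.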

How the results depend on the processing

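In all 14 alternatives *Zcchc24* was lower in HET and past the threshold, with log2 fold changes from −2.18 to −1.83 (−2.18 to −2.03 with 1 embryo left out). The gene was chosen on this contrast and the alternatives reuse the same embryos. They show only how far its value moves with the processing. The other 6 genes were not called in any alternative. Their signs held in 14 of 14 for *Zcchc12* and *Zcchc14* and in 13 for *Zcchc17*, but in 10 for *Zcchc3* and 11 for *Zcchc8* and *Zcchc18*, whose fold changes were near 0. *Zcchc12* ranged from 0.01 without HET 7 to 0.57 without HET 5, and *Zcchc3* was −0.13 in the embryos with low *Ttr*. Over all genes edgeR called 25, 5 higher and 20 lower in HET. DESeq2 called 85, 21 higher and 64 lower. The 5 embryos with *Ttr* under 100 CPM gave 15 calls, 3 higher and 12 lower. A choroid plexus score as covariate gave 23 calls, 2 higher and 21 lower. With 1 embryo left out the calls numbered 14 to 23, 0 to 5 higher and 13 to 20 lower. The lowest counts came without HET 6, at 14 calls and 13 lower, and without HET 5 or HET 7, at 16 calls and 0 higher. The causes of these shifts were not tested. No paired analysis was possible because the litter of each embryo is not given in the sources used here. The embryos were therefore treated as independent. The number 5, which stands in both groups, is not said to mark a pair. Depth gave *Zcchc24* at least 441 reads in every library, and the number of embryos limits the precision of the fold changes.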
